A study of Mus musculus with 20 samples.

Results

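The RNA of 9 genes that serve the secretion of IgA into the gut was followed in the terminal ileum. These genes were chosen by name from the 35204 genes of the gene-level count table. They were Igha (IgA heavy chain constant region), Jchain (joining chain), Pigr (polymeric immunoglobulin receptor), and the plasma cell genes Mzb1, Derl3, Xbp1, Prdm1, Pou2af1 and Sdc1. All 9 passed the filter on low values (at least 0.5 CPM, a count relative to the total of its library, in 1 mouse or more), as did 16306 genes in all. Female C57Bl6 mice, 7 weeks old at the start and housed under specific pathogen-free (SPF) conditions, received a control amino acid diet (CD) or the same diet without tryptophan (TDD) for 3 weeks. Mice of 2 further groups on these diets also received ABX, a cocktail of ampicillin, vancomycin, gentamycin, metronidazole and neomycin given in the drinking water. Each of the 4 groups (CD, TDD, CD+ABX and TDD+ABX) held 5 mice, and a full-thickness piece of ileum from each mouse gave 1 poly-A RNA library. The piece therefore held epithelium, lamina propria, muscle and any lymphoid follicle that lay in it, and no cells were sorted.

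IgA plasma cells lie in the lamina propria beneath the epithelium and are among the most productive secretory cells of the body. They link 2 IgA units through the J chain, and the polymeric immunoglobulin receptor on the basal side of epithelial cells binds this dimer, carries it across the cell and releases it into the lumen with a part of itself attached. Prdm1 and Xbp1 encode transcription factors of plasma cell differentiation and of the enlarged secretory apparatus, Pou2af1 a coactivator of octamer-binding factors in B lineage cells, Mzb1 and Derl3 proteins of the endoplasmic reticulum (ER), and Sdc1 the surface proteoglycan CD138. Xbp1, Prdm1 and Sdc1 are also made by intestinal epithelium, whereas Igha, Jchain and Mzb1 are made by cells of the B lineage and Pigr by epithelium.

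IgA heavy chain RNA takes a secreted or a membrane form according to how its end is spliced, and both forms are shown here because they separate antibody made for export from the receptor of IgA B cells. Igha (ENSMUSG00000095079.6) lies on chromosome 12 of GRCm38, on the minus strand, from 113254830 to 113260236. The GENCODE M21 transcripts Igha-201 and Igha-202 share their first 972 bases and then part. Of each, the last 30 shared bases are given in lower case, followed in capitals by the coding bases that belong to that form alone, 62 bases of the third exon (chr12:113258768-113258829) in the secreted form and 197 bases of the membrane exon (chr12:113256201-113256397) in the other.
Igha-201, secreted: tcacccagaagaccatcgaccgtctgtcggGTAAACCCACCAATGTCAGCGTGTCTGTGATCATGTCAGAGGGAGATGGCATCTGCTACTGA
Igha-202, membrane: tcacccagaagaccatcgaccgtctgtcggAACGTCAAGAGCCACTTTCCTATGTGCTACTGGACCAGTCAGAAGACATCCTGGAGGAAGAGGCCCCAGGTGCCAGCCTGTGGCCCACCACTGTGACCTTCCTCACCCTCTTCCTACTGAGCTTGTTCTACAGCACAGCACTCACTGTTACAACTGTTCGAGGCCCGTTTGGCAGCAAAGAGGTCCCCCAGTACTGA

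The secreted form made up 99.7% to 99.9% of Igha TPM (transcript abundance relative to the library, corrected for length) in every mouse. The membrane form was estimated at 2.74 to 6.57 TPM in CD mice, 2.64 to 8.71 in TDD mice, 1.02 to 1.96 in CD+ABX mice and 1.62 to 2.90 in TDD+ABX mice. Both ABX-treated groups overlapped each other in this form, and on CD the ABX-treated mice all lay below the untreated ones. The shares of the 2 forms were not tested, since neither lay between 10% and 90%.

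Total counts per mouse ranged from 36676963 to 58662617 over the 4 groups, and group medians from 43561216 to 48538795, so that the groups were sequenced to a like depth. The lowest count of any of the 9 genes in any mouse was 84, for Derl3. Epithelial markers stood at 12476 to 28720 CPM in summed level over 10 genes, and 6 smooth muscle markers at 472 to 2508 CPM. Of the defining ileal genes, Fabp6 lay at 0.319 to 2.42 CPM in CD mice and 0.238 to 3.91 CPM in TDD mice, against 2.65 to 144 CPM in CD+ABX mice and 3.34 to 40.8 CPM in TDD+ABX mice, so that this marker of distal ileum was low without ABX. The libraries also differed in B cells. The summed level of 10 B cell markers, among them Ms4a1 and Pax5, was 101 to 224 CPM in 7 mice (CD mice 2 and 3, TDD mice 2 to 5 and TDD+ABX mouse 5) and 5.93 to 36.5 CPM in the other 13, which included all CD+ABX mice.

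Of the 9 genes, Igha was the most abundant per length in every group and Prdm1 the least. Over the 20 mice, mean TPM was 1903 for Igha, which ranked 54 among 34632 genes with a TPM value, followed by 538 for Pigr, 310 for Jchain, 149 for Xbp1, 44.9 for Sdc1, 8.71 for Mzb1, 6.09 for Derl3, 5.21 for Pou2af1 and 2.38 for Prdm1. The order of the first 6 was the same in all 4 groups. In CD mice, the neighbours Derl3 (5.30 ± 1.53 TPM) and Pou2af1 (5.89 ± 2.11 TPM; SD, n = 5 each) did not differ beyond their spread, and they changed places in the other groups.

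TDD feeding of SPF mice was followed by higher levels of Jchain, Mzb1, Derl3 and Xbp1, and ABX on TDD by lower Igha, Jchain, Mzb1, Derl3, Pou2af1 and Pigr. By the threshold defined next, Mzb1 was the only member called lower with ABX on CD, although 7 of the 9 were lower there. Sdc1 rose with ABX on both diets. In SPF mice, 4 of the 9 genes rose on TDD and none fell at q under 0.05, where q is the p of edgeR's quasi-likelihood test after Benjamini-Hochberg adjustment over all genes tested. Of all genes, 14.4% passed, 6.65% higher and 7.71% lower. None of the 9 reached a fold change of 2 as well, the rule by which 1.83% of all genes were called, and none did with DESeq2. Their median log2 fold change was 0.55, against 0.01 over all genes tested. In ABX-treated mice none of the 9 passed between the diets, where 1.64% of all genes did. DESeq2, limma-voom and limma on log2(TPM + 1) likewise passed none there, and 1 gene (Xbp1) had an unadjusted p under 0.05, beside 14.7% of all genes.

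On CD, Mzb1 fell with ABX while Sdc1 and Xbp1 rose, which is 3 of 9 beside 12.6% of all genes (7.37% lower and 5.26% higher), and none reached a fold change of 2, the rule that called 2.25% of all genes. On TDD, 6 of the 9 genes fell (Igha, Jchain, Pigr, Mzb1, Derl3 and Pou2af1) and Sdc1 rose, beside 15.4% of all genes (8.22% lower and 7.14% higher). Igha, Jchain, Mzb1 and Pou2af1 fell by more than 2-fold there, as 1.26% of all genes did. The comparison of the diets in SPF mice and that of ABX on CD share the CD mice, and the comparison of ABX on TDD shares the TDD mice with the former, so that these counts are not independent of each other. The difference between the effects of the diet with and without ABX passed for none of the 9 by edgeR's quasi-likelihood test, beside 0.0368% of all genes. For 2 of them, Xbp1 and Pigr, the unadjusted p was under 0.05, as for 8.87% of all genes. DESeq2 passed 1 of the 9, Xbp1, and limma-voom none. In a whole piece of tissue, fewer cells of a type and less RNA per cell cannot be told apart, which holds for each of these results.

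**Figure D1:**
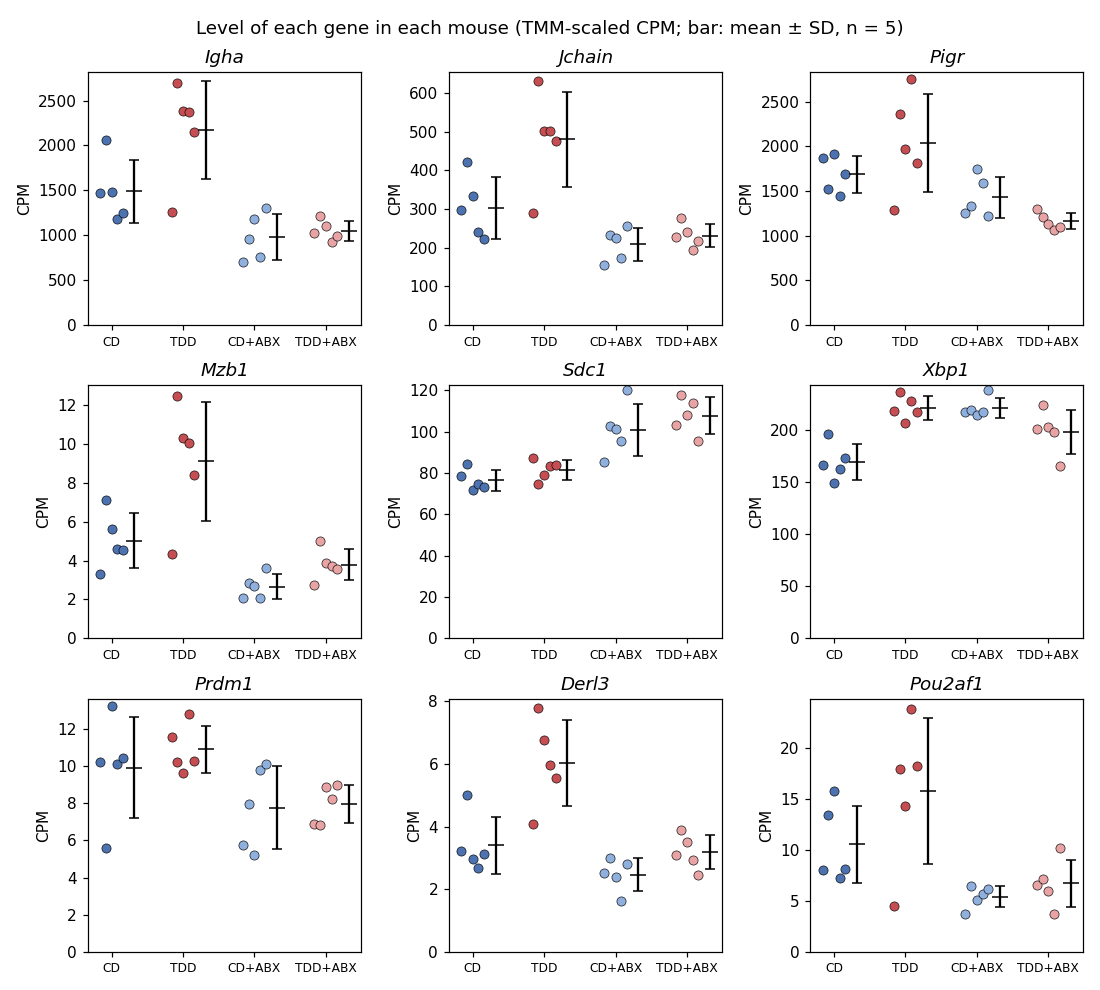
Level of each of the 9 genes in each mouse, in CPM scaled by TMM on a linear axis from 0, for the 4 groups on the horizontal axis. Points are mice 1 to 5 from left to right, and bars give the mean ± SD (n = 5). TDD mouse 1 is the lowest of the TDD mice in Igha, Jchain, Mzb1, Derl3, Pou2af1 and Pigr.

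The antibody genes Igha and Jchain were followed first. Igha CPM was 1467, 2064, 1478, 1182 and 1246 in CD mice 1 to 5 and 1258, 2695, 2385, 2374 and 2152 in TDD mice 1 to 5. With ABX it was 706, 961, 1183, 758 and 1301 in the CD mice and 1023, 1214, 1102, 920 and 988 in the TDD mice. Of the TDD mice, 4 lay above every CD mouse, whereas mouse 1 lay within the CD range, and CD mouse 2 was the highest of its group. CD mice averaged 1487 ± 348 CPM and TDD mice 2173 ± 547 CPM (SD, n = 5), and the log2 fold change of 0.55 (SE 0.20) missed the threshold (q = 0.0718, edgeR). It passed without CD mouse 2 or TDD mouse 1 (q from 0.0139 to 0.178 over 20 fits that each left out 1 mouse) and with DESeq2 (q = 0.0353). With ABX the diets differed by 0.10 on the log2 scale, with an approximate 95% interval from -0.29 to 0.48.

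On TDD, every ABX-treated mouse lay below every untreated mouse in Igha, and the gene fell 2.07-fold (log2 fold change -1.05, SE 0.20, q = 0.0027, edgeR). Groups that did not overlap were found for 5 of the 9 genes in this comparison and for 11.0% of all genes, for 3 of the 9 on CD (9.74% of all genes) and for none between the diets with ABX (4.78%). On CD the log2 fold change was -0.60 (SE 0.20), which missed the threshold (q = 0.0529, edgeR) but passed without CD mouse 4, CD+ABX mouse 5 or TDD mouse 1 (lowest q = 0.0222) and with DESeq2 (q = 0.0235), and 2 CD+ABX mice overlapped the CD range. The B cell markers differed between the groups as well, but did not follow Igha in every mouse. Their sum had a median of 12.8 CPM in CD and 150 CPM in TDD mice, and of 9.05 and 18.4 CPM with ABX. TDD mouse 1 had 8.01 CPM. TDD+ABX mouse 5 had the highest sum of its group, 158 CPM, with Igha at 988 CPM, below the group's mean of 1049 CPM. CD mice 1 and 3 had sums of 12.8 and 147 CPM with Igha at 1467 and 1478 CPM. With this sum as a covariate in the fit, an alternative chosen after the data were seen, Igha still fell with ABX on TDD (log2 fold change -0.76, q = 0.0154, edgeR) but by less than 2-fold. The part of B cells or of lymphoid follicles in the sampled pieces was not tested beyond this.

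Jchain, whose product joins IgA units and is needed for binding to the receptor, lies on chromosome 5 (88519809 to 88527891, minus strand). Its CPM was 298, 421, 334, 241 and 222 in CD mice and 290, 631, 501, 502 and 476 in TDD mice, and with ABX 154, 232, 224, 174 and 256 on CD and 228, 276, 241, 194 and 216 on TDD. The same mice stood out as for Igha, with CD mouse 2 the highest of its group and TDD mouse 1 the lowest of its own. Jchain rose 1.59-fold in SPF mice fed TDD (log2 fold change 0.66, SE 0.19, q = 0.027, edgeR). In 6 of the 20 fits that left out 1 mouse this call was lost (CD mice 1, 4 and 5 and TDD mice 2, 3 and 4; highest q = 0.0864), as it was with the B cell sum as a covariate (q = 0.0837). On TDD it fell 2.08-fold with ABX (log2 fold change -1.05, SE 0.19, q = 0.00236), with no overlap, and all 20 fits without 1 mouse kept the call. On CD the change of -0.54 with ABX missed the threshold (q = 0.0737) but passed without TDD mouse 1 (q = 0.0349) and with DESeq2 (q = 0.0417).

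Igha and Jchain moved together from mouse to mouse. After subtraction of group means, log2(CPM + 0.5) of the pair correlated over the 20 mice with Pearson's r = 0.95 and Spearman's rho = 0.92 (permutation test within groups with 100000 permutations, p = 1e-05 for both, the smallest they can give; p = 0.00015 after Benjamini-Hochberg adjustment over 15 relations), and r was 0.92 without the 2 mice farthest from the median, CD mouse 2 and TDD mouse 1. Igha correlated likewise with Mzb1 (r = 0.84, rho = 0.86, adjusted p = 0.00165 and 0.000375; r = 0.70 without the same 2 mice) and Derl3 (r = 0.79, rho = 0.76, adjusted p = 0.00335 and 0.002; r = 0.65 without them). For Pou2af1, r was 0.70 (adjusted p = 0.026) and rho 0.57 (adjusted p = 0.0521), and r fell to 0.49 without these 2 mice. The relation of Igha with Xbp1 (r = 0.42, adjusted p = 0.092), Prdm1 (-0.27, adjusted p = 0.374), Sdc1 (0.37, adjusted p = 0.243) and Pigr (0.48, adjusted p = 0.199) did not pass. On log2(TPM + 0.5) in place of CPM, Igha with Xbp1 passed (r = 0.54, adjusted p = 0.0263, rho adjusted p = 0.036; r = 0.31 without the same 2 mice), as did rho with Pou2af1 (adjusted p = 0.036), by the same permutation test. All values of a mouse come from 1 library and 1 piece of tissue.

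**Figure D2:**
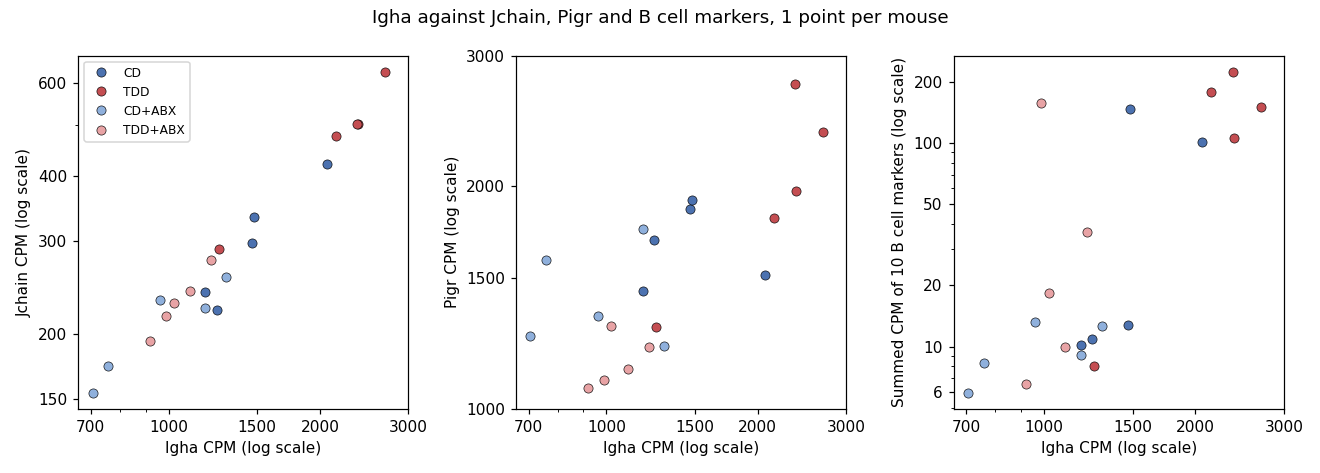
Igha CPM against Jchain CPM, Pigr CPM and the summed CPM of 10 B cell markers, on log axes, with 1 point per mouse coloured by group. Igha and Jchain lie close to a line over all 20 mice, Pigr is spread more widely, and the B cell sum falls into 7 mice at 101 CPM or more and 13 mice at 36.5 CPM or less.

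The difference in log2(CPM + 0.5) between Igha and Jchain in the same mouse was compared between groups to ask whether the heavy chain moved apart from its partners. It was 2.30 ± 0.12 in CD and 2.18 ± 0.07 in TDD mice, and 2.22 ± 0.15 and 2.18 ± 0.04 with ABX (SD, n = 5 each). None of 12 such comparisons, of Igha against Jchain, Mzb1 and Pigr in 4 pairs of groups, passed after adjustment. The smallest was that of Igha against Mzb1 between the diets in ABX-treated mice (two-sided exact permutation test, p = 0.0397, adjusted p = 0.262), in a design whose smallest possible p is 0.00794.

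Pigr, the transporter of dimeric IgA in epithelial cells, lies on chromosome 1 (130826684 to 130852249, plus strand). Its CPM was 1865, 1517, 1917, 1441 and 1693 in CD mice and 1291, 2362, 1970, 2750 and 1810 in TDD mice, and with ABX 1253, 1335, 1749, 1589 and 1215 on CD and 1294, 1211, 1134, 1068 and 1096 on TDD. The TDD mice were the most spread out, with a coefficient of variation of 27.2% against 7.9% in TDD+ABX mice, and TDD mouse 1 was again the lowest of its group. Pigr fell 1.76-fold with ABX on TDD (log2 fold change -0.81, SE 0.16, q = 0.0029, edgeR), where TDD mouse 1 overlapped the ABX-treated mice by 1 of them, TDD+ABX mouse 1. All 20 fits without 1 mouse kept this call. On CD the difference with ABX was -0.24 (approximate 95% interval -0.54 to 0.06, q = 0.358). The effect of the diet was 0.27 without ABX (interval -0.03 to 0.58, q = 0.265) and -0.30 with it (interval -0.60 to 0.01, q = 0.385). The difference between these effects, -0.57 (SE 0.22), had an unadjusted p of 0.0175 and did not pass over all genes (q = 0.414).

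Genes of the signals and traffic around the receptor were read as a list. Of 14 genes tested from a list of the IL-17, IL-4 and interferon receptors, the NF-kB factors and the endosomal machinery, 3 fell on TDD in SPF mice, beside 7.71% of all genes, and none rose, namely Irf1 (log2 fold change -0.39, q = 0.0229), Rab25 (-0.28, q = 0.00472) and Myo5b (-0.46, q = 0.00723). Rab25 encodes a GTPase of apical recycling endosomes and Myo5b the motor that moves them. With ABX on CD, Rab11a, a related GTPase, rose (0.30, q = 0.0358) and Il17ra fell (-0.23, q = 0.0177). On TDD, Rab11a (0.27, q = 0.0479) and Rab25 (0.18, q = 0.0478) rose with ABX and Il4ra fell (-0.37, q = 0.0239). The median log2 fold change of the 14 genes lay between -0.09 and -0.06 in all 4 comparisons, against -0.03 to 0.01 for all genes tested.

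Over the 20 mice, without subtraction of group means, the genes whose log2(CPM + 0.5) was most like that of Pigr were Zc3h12a (r = 0.86), Ppt1 (0.84), Tnfaip2 (0.83), Fam122b (0.81) and Ccl28 (0.80), of 14047 genes compared. Those most like Igha were Igkc (r = 0.99), Jchain (0.98), Mzb1 (0.94), Irf4 (0.90) and Derl3 (0.90), of 13904 genes compared after 143 variable segments of antibody genes were left out. Irf4 encodes a transcription factor of plasma cells, Igkc the constant region of the kappa light chain and Ccl28 a chemokine of mucosal epithelium. These are descriptions over mice of 4 groups and carry no test.

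**Figure D3:**
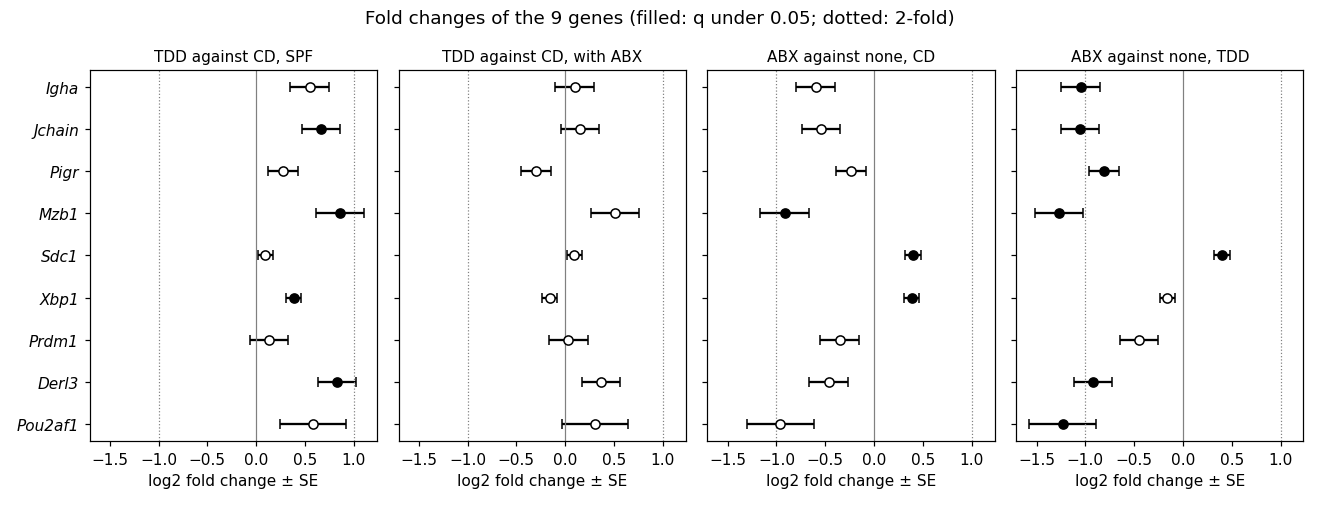
Log2 fold change (points) and SE (bars) of the 9 genes in the 4 comparisons named above the panels, from edgeR's quasi-likelihood fit. Filled points have q under 0.05 and dotted lines mark 2-fold. On TDD, 6 genes lie to the left with filled points and Sdc1 to the right in the comparison of ABX with none.

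Mzb1 and Derl3 act in the ER of plasma cells, Mzb1 as a partner in antibody assembly and Derl3 in the removal of misfolded protein. Mzb1 (chromosome 18, 35647267 to 35649367) stood at 3.31, 7.10, 5.61, 4.59 and 4.53 CPM in CD mice, 4.32, 12.5, 10.3, 10.05 and 8.40 CPM in TDD mice, 2.10, 2.85, 2.68, 2.06 and 3.60 CPM in CD+ABX mice and 2.75, 4.98, 3.87, 3.72 and 3.59 CPM in TDD+ABX mice. Apart from mouse 1, TDD mice lay above every mouse of the other groups. Mzb1 rose 1.81-fold in SPF mice fed TDD (log2 fold change 0.86, SE 0.24, q = 0.0233, edgeR), fell 1.89-fold with ABX on CD (-0.92, SE 0.25, q = 0.0203) and fell 2.41-fold with ABX on TDD (-1.27, SE 0.25, q = 0.00306). The first call did not hold when CD mouse 1, 4 or 5, or TDD mouse 2 or 3, was left out (highest q = 0.069). The second did not hold without CD+ABX mouse 1 or 4 (highest q = 0.0547), and neither did with the B cell sum as a covariate (q = 0.0976 and 0.0686). The third was kept in all of these fits. Without CD mouse 2 or TDD mouse 1 the rise on TDD reached 2-fold (highest log2 fold change 1.03).

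Derl3 (chromosome 10, 75893413 to 75895941) stood at 3.22, 5.002, 2.97, 2.68 and 3.14 CPM in CD mice and 4.07, 7.77, 6.77, 5.97 and 5.56 CPM in TDD mice, and with ABX at 2.51, 2.998, 2.40, 1.64 and 2.79 CPM on CD and 3.10, 3.88, 3.49, 2.95 and 2.47 CPM on TDD. CD mouse 2 alone reached into the TDD range. Derl3 rose 1.77-fold in SPF mice fed TDD (log2 fold change 0.82, SE 0.20, q = 0.0082, edgeR) and fell 1.90-fold with ABX on TDD (-0.92, SE 0.20, q = 0.00535), where the groups did not overlap. Both calls held in all 20 fits without 1 mouse and with the B cell sum as a covariate (q = 0.0321 and 0.0311). On CD, the change of -0.46 with ABX did not pass (q = 0.135).

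Xbp1, the transcription factor that drives the genes of secretion and of the unfolded protein response, lies on chromosome 11 (5520659 to 5525893). It was at 166, 196, 149, 162 and 173 CPM in CD mice and at 218, 236, 206, 228 and 217 CPM in TDD mice. With ABX it was at 217, 219, 214, 217 and 238 CPM on CD and at 200, 223, 202, 198 and 165 CPM on TDD. The CD mice lay below every TDD mouse and below every CD+ABX mouse, and Xbp1 was the only 1 of the 9 genes without overlap between the diets in SPF mice (9.58% of all genes). It rose 1.31-fold in SPF mice fed TDD and by the same fold with ABX on CD (log2 fold change 0.38, SE 0.08 in both; q = 0.00222 and 0.00283, edgeR), 2 comparisons that share the CD mice, and both calls held in all 20 fits without 1 mouse and with the B cell sum as a covariate.

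Between the diets in ABX-treated mice, Xbp1 differed by -0.16 (approximate 95% interval -0.31 to -0.01, q = 0.33, edgeR), and with ABX on TDD by -0.16 (interval -0.31 to -0.01, q = 0.156). The difference between the effects of the diet with and without ABX was -0.54 (SE 0.11, unadjusted p = 5.71e-05), which fell short over all genes tested (q = 0.0632). It passed without CD mouse 2 or TDD+ABX mouse 2 (q from 0.03 to 0.135 over the 20 fits) and with DESeq2 (q = 0.00109). Epithelial markers moved with ABX as well, as 4 of 10 rose on CD, 5 of 10 on TDD and none fell, namely the ileal genes Fabp6 (log2 fold change 5.14 and 3.92, q = 0.00585 and 0.0198) and Slc10a2 (4.07 and 2.65, q = 9.83e-05 and 0.0014), Fabp2 (1.20 and 1.22, q = 0.000543 and 0.000556), Krt8 (0.35 and 0.49, q = 0.0355 and 0.00609) and, on TDD alone, 1 more. Of all genes, 5.26% rose with ABX on CD and 7.14% on TDD. The part of the epithelial markers in the values of Xbp1 was not tested.

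Genes of the secretory apparatus, many of them targets of Xbp1 or of related factors, were read beside it as a list of 18. On TDD in SPF mice 8 rose, namely Herpud1 (log2 fold change 0.74, q = 0.00276), Dnajb9 (0.64, q = 0.00331), Manf (0.51, q = 0.00702), Hyou1 (0.45, q = 0.0279), Creld2 (0.42, q = 0.0289), Hspa5 (0.40, q = 0.0404), Ssr4 (0.27, q = 0.011) and Sec11c (0.23, q = 0.0161; edgeR's quasi-likelihood test for all). Ern1, which encodes the ER sensor IRE1 alpha that splices Xbp1 RNA, fell (-0.38, q = 0.0129, edgeR). Of all genes, 6.65% rose and 7.71% fell there. With ABX on CD 11 of the 18 rose, beside 5.26% of all genes, and none fell. Hspa5, the ER chaperone BiP, went from 471 ± 53.9 CPM to 977 ± 82.1 CPM (SD, n = 5; log2 fold change 1.05, q = 8.64e-05), Sdf2l1 changed by 1.05 (q = 0.000451), Creld2 by 0.97 (q = 0.000126) and Syvn1 by 0.94 (q = 8.64e-05).

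With ABX on TDD, 3 of the 18 rose and 1 fell, beside 7.14% and 8.22% of all genes. Those that rose were Sdf2l1 (0.49, q = 0.0382), Creld2 (0.41, q = 0.0315) and Calr (0.30, q = 0.0357). Sec11c fell (-0.25, q = 0.0113; edgeR for all). Between the diets in ABX-treated mice only Syvn1 passed, and it was lower on TDD (-0.67, q = 0.0045), with 162 ± 20.5 CPM in CD+ABX and 102 ± 17.97 CPM in TDD+ABX mice (SD, n = 5). The median log2 fold change of the list was 0.23 for the diet in SPF mice, -0.18 for the diet with ABX, 0.57 for ABX on CD and 0.15 for ABX on TDD. None of the 18 passed the test of the difference between diet effects by edgeR or limma-voom. There 13 had an unadjusted p under 0.05 by edgeR, beside 8.87% of all genes. DESeq2 passed 4 of the 18 and 134 of all genes. The smallest q by edgeR was 0.0637, for Syvn1 (-0.77). The list is expressed by epithelium as well as by plasma cells.

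**Figure D4:**
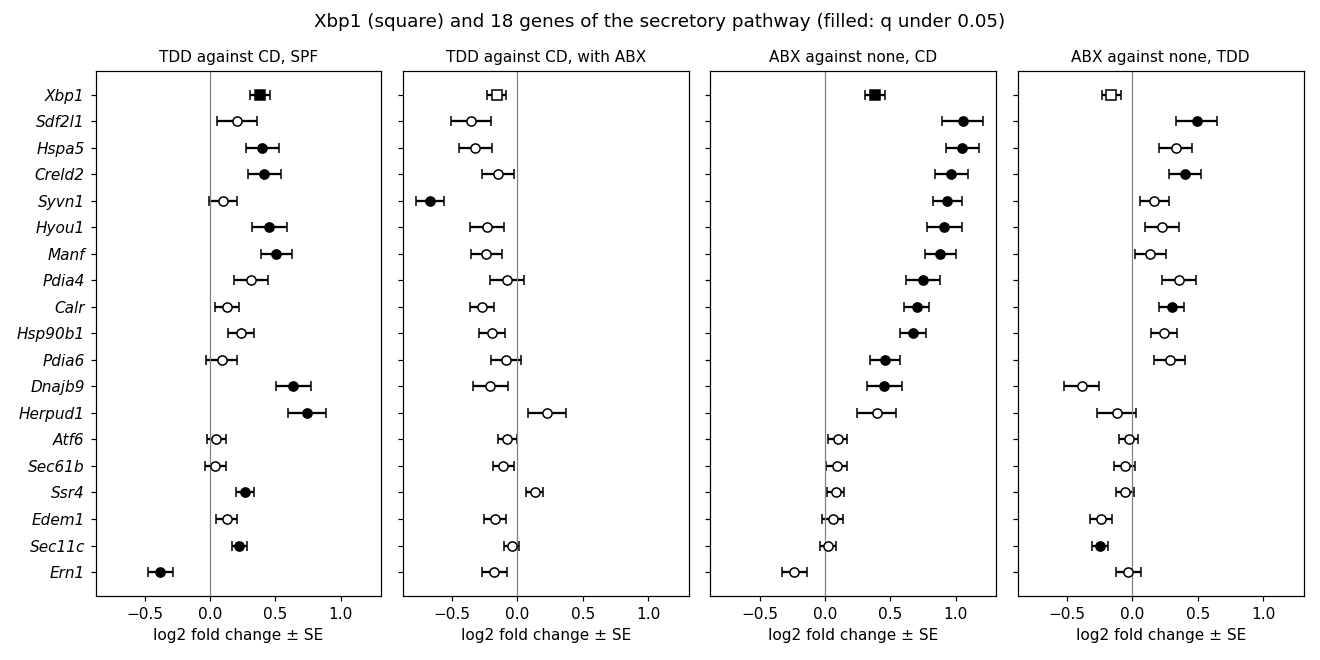
Log2 fold change (points) and SE (bars) of Xbp1 and of 18 genes of the secretory apparatus in the 4 comparisons, ordered by their change with ABX on CD. Filled points have q under 0.05. In the panel of ABX on CD, 11 of the 18 genes are filled and lie to the right of 0, and in the panel of the diets with ABX only Syvn1 is filled.

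Sdc1 (chromosome 12, 8771323 to 8793715), whose product CD138 marks plasma cells and also coats the basal side of epithelial cells, went the other way from the antibody genes with ABX. It was at 78.6, 84.4, 71.8, 74.4 and 73.4 CPM in CD mice and at 87.0, 74.4, 79.2, 83.1 and 84.0 CPM in TDD mice. With ABX it was at 85.3, 103, 101, 95.3 and 120 CPM on CD and at 103, 118, 108, 114 and 95.2 CPM on TDD. Every ABX-treated mouse lay above every untreated mouse of its diet, and Sdc1 rose 1.32-fold with ABX on both diets (log2 fold change 0.40, SE 0.08 in each; q = 0.00297 on CD and 0.0032 on TDD, edgeR). These calls held in all 20 fits without 1 mouse. The summed level of the 10 epithelial markers had a median of 16319 CPM in CD and 20680 CPM in CD+ABX mice. It was 15919 CPM in TDD and 22500.2 CPM in TDD+ABX mice. Of the 10, only 4 passed with ABX on CD and 5 on TDD by edgeR. Their median log2 fold change was 0.24 on CD and 0.32 on TDD. The part of these markers in the values of Sdc1 was not tested. The diets differed by 0.09 without and with ABX (approximate 95% interval -0.06 to 0.25 in each). Its 2 main transcripts, Sdc1-201 and Sdc1-205, held on average 53.9% and 44.5% of its TPM, and neither share differed between groups (exact permutation test, lowest adjusted p = 0.98 over 36 tests of transcript shares).

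Pou2af1 (chromosome 9, 51213708 to 51240080) encodes the coactivator OCA-B, which B cells and plasma cells both use. It was at 8.07, 13.4, 15.7, 7.27 and 8.13 CPM in CD mice and at 4.52, 17.9, 14.3, 23.8 and 18.3 CPM in TDD mice, and with ABX at 3.75, 6.43, 5.12, 5.64 and 6.15 CPM on CD and at 6.55, 7.13, 5.996, 3.74 and 10.2 CPM on TDD. The highest values of each group apart from CD+ABX were those of the mice with high B cell markers. Pou2af1 fell 2.35-fold with ABX on TDD (log2 fold change -1.23, SE 0.34, q = 0.0215, edgeR), a call that was lost without TDD mouse 4, TDD+ABX mouse 1 or TDD+ABX mouse 3 (highest q = 0.0592), with the 2 groups fitted alone (q = 0.0627) and with the B cell sum as a covariate (log2 fold change -0.48, q = 0.0559). On CD the groups did not overlap, but the change of -0.96 missed the threshold (q = 0.073) except without TDD mouse 1 (q = 0.0168) or with DESeq2 (q = 0.0293). The diet effect of 0.58 in SPF mice did not pass (q = 0.271) except without TDD mouse 1 (q = 0.043), and it became -0.06 with the B cell sum as a covariate.

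Prdm1 (chromosome 10, 44437177 to 44528501), which encodes Blimp-1, had the lowest TPM of the 9 and passed in none of the 5 comparisons. In CPM, which is not corrected for length, it ranged from 5.61 to 13.2 CPM (median 10.2) in CD mice, from 9.63 to 12.8 CPM (10.3) in TDD mice, from 5.24 to 10.1 CPM (7.94) in CD+ABX mice and from 6.83 to 8.98 CPM (8.22) in TDD+ABX mice. On TDD, the ABX-treated mice all lay below the untreated mice, with a log2 fold change of -0.45 (SE 0.20, q = 0.124, edgeR), and with these 2 groups fitted alone the call was made (q = 0.0235). CD mouse 2, the highest of its group in Igha, Jchain, Mzb1, Derl3, Xbp1 and Sdc1, was the lowest in Prdm1.

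Other constant regions, of heavy and of light chains, were read beside that of the IgA heavy chain. Of 10 tested, none passed between the diets in SPF mice by edgeR, beside 14.4% of all genes. There 5 had an unadjusted p under 0.05 by edgeR, a count for which no share over all genes was taken. DESeq2 and limma-voom passed 1 each, beside 2754 and 2283 of the 16306 genes. With ABX, 3 fell on CD and 5 on TDD, beside 7.37% and 8.22% of all genes, and none rose. With the B cell sum as a covariate 3 passed on each diet, beside 1723 of the 16306 genes on CD and 1798 on TDD. Limma-voom passed 2 on CD and 6 on TDD, beside 1953 and 2470 of all genes. Igkc, the light chain that most mouse antibodies carry, was at 1004 ± 211 CPM in CD, 1413 ± 377 in TDD, 607 ± 143 in CD+ABX and 652 ± 81.9 in TDD+ABX mice (SD, n = 5). It fell by 0.73 on the log2 scale with ABX on CD (q = 0.0203, edgeR) and by 1.12 on TDD (q = 0.00182), without overlap in either. Ighg2c fell with ABX on CD (log2 fold change -3.82, q = 8.64e-05), where its mean went from 6.25 ± 1.85 CPM to 0.444 ± 0.232 CPM. On TDD it fell as well (-1.36, q = 0.0288), with means of 4.50 ± 1.65 CPM and 1.75 ± 1.14 CPM, and among ABX-treated mice it was higher on TDD (1.98, q = 0.0293), as the only constant region to pass there, where limma-voom passed none.

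Ighg2b fell on both diets with ABX (-2.72, q = 0.011 on CD and -2.95, q = 0.0061 on TDD, edgeR), and Ighg3 (-2.91, q = 0.0219) and Ighm (-1.84, q = 0.0491) on TDD. Ighg1, Ighd, Iglc1, Iglc2 and Iglc3 passed in no comparison, and Ighe was below the filter. The Ighg genes are close paralogs, as are the Iglc genes, so that reads could have been split between them and their separate values are uncertain. Ighd, made by naive B cells, was at 0.252 to 21.9 CPM in CD mice, 0.251 to 45.4 CPM in TDD mice, 0.309 to 2.09 CPM in CD+ABX mice and 0.299 to 32.8 CPM in TDD+ABX mice, and its high values were in the mice with high B cell markers.

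Further plasma cell genes were counted in a list of 8. None passed between the diets by edgeR or limma-voom, with or without ABX. In each case 2 had an unadjusted p under 0.05 by edgeR, beside 14.7% of all genes with ABX (no share was taken without it). DESeq2 passed 1 in each case, beside 2754 of the 16306 genes without ABX and 613 with it. With ABX 4 fell on CD, namely Irf4 (log2 fold change -1.01, q = 0.0299), Slamf7 (-0.88, q = 0.0132), Tnfrsf17 (-0.80, q = 0.0495) and Eaf2 (-0.58, q = 0.017), and 3 fell on TDD, namely Irf4 (-1.22, q = 0.0106), Tnfrsf17 (-0.97, q = 0.0165) and Tent5c (-0.61, q = 0.0183; edgeR for all). Tnfrsf17 encodes BCMA, a survival receptor of plasma cells. Ell2, Txndc5 and Fkbp11 passed in none. Of all genes, 7.37% fell with ABX on CD and 8.22% on TDD. With the B cell sum as a covariate, 2 of the 8 passed for ABX on CD and 1 on TDD, beside 1723 and 1798 of the 16306 genes.

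Of 15 genes tested for IgA class switching and for the homing of its cells to the gut, 8 fell with ABX on CD and 7 on TDD. None rose, and of all genes 7.37% fell on CD and 8.22% on TDD. Ccr9, the receptor for the small intestinal chemokine Ccl25, fell on CD (2.01-fold, q = 0.0032), as did Itgb7 (-1.17, q = 0.00828), a chain of the gut-homing integrin. Tnfrsf13b, which encodes the receptor TACI, fell on both diets (-1.28, q = 0.0221 and -1.18, q = 0.0259). On TDD, Ccr10, the receptor for Ccl28 on IgA cells, fell (-1.10, q = 0.00483), as did Ccl28 (-0.50, q = 0.0498). Between the diets in SPF mice only Tnfsf13b (BAFF, -0.57, q = 0.0337) and Ccl25 (-0.29, q = 0.00331) passed by edgeR, both lower on TDD, beside 7.71% of all genes. With ABX none of the 15 passed by edgeR or limma-voom, where 2 had an unadjusted p under 0.05 by edgeR, beside 14.7% of all genes. DESeq2 passed 1 there, beside 613 of the 16306 genes. With the B cell sum as a covariate, 5 of the 15 passed for ABX on CD and 2 on TDD, beside 1723 and 1798 of the 16306 genes.

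T cells carry Ccr9 and Itgb7 too, and their markers also fell with ABX, 4 of 5 on CD and 3 of 5 on TDD, for example Cd3e (-1.63, q = 0.00112 and -0.99, q = 0.0208; edgeR). The shares of all genes that fell were 7.37% on CD and 8.22% on TDD. The summed level of the 5 T cell markers was 28.9 to 83.7 CPM in CD, 26.2 to 38.6 in TDD, 17.0 to 22.1 in CD+ABX and 15.5 to 27.2 in TDD+ABX mice. None of the 10 B cell markers passed in any comparison by edgeR or limma-voom. For ABX on CD all 10 had an unadjusted p under 0.05 by edgeR, a count for which no share over all genes was taken. DESeq2 passed 6 there, beside 2606 of the 16306 genes, and log2 fold changes ran from -4.30 to -1.91. Between the diets with ABX, 7 had an unadjusted p under 0.05 by edgeR, beside 14.7% of all genes, and DESeq2 passed 0. In the other comparisons none had an unadjusted p under 0.05. Of 7 follicle genes, Gp2 fell (-1.90, q = 0.03) and Rgs13 rose (0.90, q = 0.00686) with ABX on CD, and Rgs13 rose on TDD (0.79, q = 0.0154; edgeR for all). Rgs13 went against the rest of its list, as the other 6 genes were lower with ABX on both diets. Of 10 Paneth and goblet cell genes, 1 rose and 1 fell on TDD in SPF mice, beside 6.65% and 7.71% of all genes. With ABX on TDD, 1 of the 10 rose and 1 fell, beside 7.14% and 8.22% of all genes. None of 6 smooth muscle genes passed. The part of these cells in the results above was not tested.

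Promoters of the members were read for motifs in RefSeq windows of GRCm38.p6, from 250 bases before to 50 bases after the start, which 7 of the 9 genes had. The motifs were the octamer ATGCAAAT, the ER stress response element (CCAAT, any 9 bases, CCACG), the Xbp1-type core TGACGTGG and a paired element of interferon regulatory factors (GAAA, any 2 bases, GAAA), each searched on both strands. Of 32851 windows, 1.74%, 0.119%, 0.676% and 3.44% held them in this order. The stress element was found in Derl3, whose level followed Igha, on the minus strand from position -156, and TGACGTGG in Pou2af1 from position -61, counted from the RefSeq start. Stretches of 100 bases of the plus strand hold them in capitals, chr10:75893198-75893297 for Derl3 and chr9:51213580-51213679 for Pou2af1.
Derl3 promoter: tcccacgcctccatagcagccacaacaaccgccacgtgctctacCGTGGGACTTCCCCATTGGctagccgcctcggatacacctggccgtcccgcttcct
Pou2af1 promoter: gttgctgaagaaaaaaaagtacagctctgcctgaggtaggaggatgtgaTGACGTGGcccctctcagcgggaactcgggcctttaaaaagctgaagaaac
The windows of Jchain, Pigr, Sdc1, Xbp1 and Prdm1 held none of these letters, which says nothing of the factors themselves.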

How the data were processed

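Poly-A RNA of the ileum was sequenced from 20 mice. The authors quantified transcripts of GRCm38 with kallisto 0.44.0, per the labels, and deposited estimated counts per gene, not normalized, and estimated counts and TPM per transcript. Reads that match several transcripts are shared out, so close paralogs are less certain. Gene counts, which were deposited as whole numbers, were scaled by TMM and tested with edgeR 4.0.16 (quasi-likelihood test with robust spread, 4 groups in 1 fit, genes below 0.5 CPM in all mice left out) in R 4.3.3, with limma 3.58.1 and DESeq2 1.42.0 as alternatives. The fit was tested on simulated data. q is the Benjamini-Hochberg adjusted p over 16306 genes, and a gene was called at q under 0.05 and, where stated, a fold change of at least 2, the rule named in the study's methods. SE is the log2 fold change over the root of the F statistic, and approximate intervals are the normal ones. Gene TPM is the sum over transcripts of GENCODE M21, to which 111362 of 113193 matched. Exact and permutation tests were two-sided (scipy 1.17.1).

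The 9 genes and 11 lists were chosen with earlier results of these data known. Of the lists, those at q under 0.05 were named, up to the 4 with the largest change per list and comparison, and all constant regions; further genes named beside them (of the secretory apparatus list, all that rose on TDD, for example) were chosen after their values were seen. The 5 genes most like Igha and Pigr were named. The labels number mice 1 to 5 per group and do not say which of them shared litters or cages. The p-values measure the spread between mice. If mice of a group shared a cage, its effect could not be told apart from that of the treatment. All labelled mice were used. The study's plots of these data show fewer, and which mice they leave out was not taken up here.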

Additional observations from a re-analysis of the deposited data

Results flagged for a closer look

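Of 36 sets of 5 CPM values (9 genes in 4 groups), 2 held a mouse far from the others by Dixon's test at the 95% level, where chance flags about 1 in 20. Xbp1 in CD+ABX mouse 5 was at 238 CPM, the next highest of the group at 219 CPM, a gap of 0.80 of the group's range. Derl3 in CD mouse 2 was at 5.002 CPM, the next highest at 3.22 CPM, a gap of 0.77 of the range. The call of Xbp1 with ABX on CD and that of Derl3 between the diets in SPF mice were kept without these mice.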

How the results depend on the processing

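RLE scaling, scaling without antibody genes, no filter, a stricter filter (0.5 CPM in 5 or more mice) and a fit without robust spread kept the direction and the side of the threshold of all 45 values (9 genes in 5 comparisons). The number of genes past q under 0.05 for the diet in SPF mice was 4 and became 2 with the 2 groups fitted alone, with the B cell sum as a covariate (chosen after the data were seen) and with limma on log2(TPM + 0.1) or log2(TPM + 1). For ABX on CD it was 3 and became 6 with DESeq2 and 4 (Igha added) with limma-voom or upper-quartile scaling. Of genes at least 2-fold changed by ABX on TDD, 4 became 2 with limma on log2(TPM + 0.1), 1 on log2(TPM + 1) and 0 with the covariate. For the difference between diet effects, 0 became 1 (Xbp1) with DESeq2. The covariate reversed Pou2af1 for the diet without ABX (-0.056), Igha (-0.055), Jchain (-0.015) and Pou2af1 (-0.176) for the diet with ABX, and Sdc1 in the difference of effects (-0.002), none of them past the threshold in either fit. The cause of these changes was not tested. Over all genes, 2342 passed for the diet in SPF mice and 1391 with the 2 groups alone. For the diet with ABX, 268 passed, and 613 with DESeq2, 159 with no filter and 113 with the replicate block. For the difference of effects, 6 passed and 134 with DESeq2. With limma on log2(TPM + 1), genes past q and 2-fold fell from 298 to 140 (diet in SPF mice), from 367 to 131 (ABX on CD) and from 265 to 98 (ABX on TDD; 169 with the covariate). With 1 mouse left out, genes past q ranged from 102 (without CD+ABX mouse 4) to 486 (without CD mouse 2) for the diet with ABX, from 1367 (without TDD+ABX mouse 1) to 3154 for ABX on TDD and from 0 to 29 for the difference of effects, and genes past q and 2-fold for ABX on TDD from 163 (without TDD+ABX mouse 1) to 421 (without TDD+ABX mouse 5).

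With each mouse left out in turn, 2 to 6 genes passed for the diet in SPF mice (0 to 1 at least 2-fold, 1 without CD mouse 2 or TDD mouse 1; 2 when CD mouse 1, 4 or 5, or TDD mouse 2 or 3, was left out), 2 to 6 for ABX on CD (6 without TDD mouse 1; 0 to 1 at least 2-fold, 1 without CD mouse 1 or CD+ABX mouse 5), 2 to 5 at least 2-fold for ABX on TDD (2 without TDD mouse 2 or TDD+ABX mouse 4) and 0 to 1 for the difference of effects (1 without CD mouse 2 or TDD+ABX mouse 2). Values that changed sign were uncalled: Prdm1 (-0.022 to 0.26 for the diet without ABX, -0.082 to 0.148 with it, -0.227 to 0.065 in the difference), Igha for the diet with ABX (-0.007 to 0.219), Sdc1 in the difference (-0.047 to 0.071), and Igha minus Jchain for the diet with ABX (-0.078 to 0.009) and for ABX on TDD (-0.012 to 0.027).

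With the replicate number as a block, 5 genes passed for ABX on CD in place of 3 (Igha and Jchain added), and no other call of the 45 changed. A check for pairing by number was read without a test. Of 30 pairs with the same number, 6 had a correlation of deviations over 0.1 (-0.444 to 0.316). Of 20 mice, 2 were closest to a mouse of their own number. The check showed no clear pairing but cannot exclude a shared litter or cage.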
